A study of Mus musculus with 18 samples.

Results

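Planar cell polarity is the alignment of epithelial cells along the plane of their sheet. Described here are genes that help to build or carry out this alignment, 10 of the 52636 gene rows counted in the series: the transmembrane proteins Vangl1 and Vangl2, the atypical cadherins Celsr1, Celsr2 and Celsr3, the cytoplasmic adaptors Prickle1 and Prickle2, the Wnt receptor Ror2, the formin Daam1 and the scaffold Scrib. They were chosen by name, with earlier results of these data known, by a rule that uses no measured value, and all 10 were found through their Ensembl identifiers.

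RNA was sequenced from mouse lung alveolar type 2 cells, the surfactant-producing cells that also renew the alveolar lining. Every group received LGK974, a porcupine inhibitor that blocks the release of the cells' own Wnt proteins. Cells had grown for 19 days with the Wnt agonist CHIR99201, and the control group kept it. CHIR99201 was withdrawn for 24 h or for 48 h in a pair of groups, and replaced by Wnt, by a Fzd5 agonist or by a Fzd6 agonist in the other 3. The treatment is labelled as lasting 8 to 12 h, and the labels do not say how long the ligand groups had been without CHIR99201, nor the animals' strain, age or genotype. Each of the 6 groups has 3 libraries, 18 in all. Nothing in the labels tells whether a group's 3 libraries are separate animals or cultures, and a p-value here therefore speaks only of the scatter among libraries, which may be technical. The groups are called CHIR, 24 h withdrawal, 48 h withdrawal, WNT, FZD5 agonist and FZD6 agonist below.

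In the core pathway, Frizzled receptors (chiefly Fzd3 and Fzd6 in mammals) gather with Dishevelled at one side of a cell, and Vangl with Prickle at the other. Celsr cadherins bridge the facing membranes of neighbouring cells. Ror2 passes Wnt5a signals into this pathway, Daam1 links Dishevelled to actin assembly, and Scrib binds Vangl proteins and also helps to separate apical from basolateral membrane. In the lung, Vangl2, Celsr1 and Scrib are known from mouse mutants with disturbed airway branching and shape.

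Total counts per library ranged from 31509607 to 52030066, and 3 counts, the fewest taken as detection, stood for 0.0577 to 0.0952 CPM (counts scaled to a library of standard size). In 14 libraries the median correlation with the other libraries was 0.966 to 0.982. In the other 4 (CHIR 1, CHIR 3, 24 h withdrawal 2 and FZD6 agonist 1) it was 0.782 to 0.950. The summed level of 8 alveolar type 2 markers was 59240 to 82960 CPM in the 14 and 117200 to 157200 CPM in the 4. Most of this sum was Sftpc, with a mean of 59490 CPM over the 18 libraries. Other markers went the other way in at least 1 of the 4. Abca3, Lamp3, Slc34a2 and Etv5 fell to 190, 104, 2040 and 28.2 CPM there, and were at least 1138, 1072, 6826 and 136 CPM in the 14. Sftpb and Sftpa1 lay both below and above the range of the 14. The sums of 8 alveolar type 1 markers were 3334 to 9428 CPM over all 18. Ciliated markers summed to 1.68 to 21.8 CPM, haematopoietic markers to 0.106 to 13.6 CPM, and mesenchymal, neuroendocrine and endothelial markers to at most 0.840, 1.02 and 0.143 CPM in any library. Basal markers reached 12.6 CPM in FZD6 agonist 1 and 3.03 CPM in CHIR 3, and at most 0.109 CPM elsewhere. Mitochondrial genes took 4.13% of the counts in 24 h withdrawal 2 and 0.271 to 0.718% in the others. The airway secretory gene Scgb1a1 reached 38.6 to 79.8 CPM in CHIR 3, 24 h withdrawal 2 and FZD6 agonist 1 and at most 0.947 CPM in the 14. Those same 3 libraries held 0 to 4 counts of Xist, and the other 15 held 251 to 812. Xist is the RNA that coats the inactive X chromosome of female cells, and the labels give no library's sex or animal. Whether these 3 libraries came from other animals than the rest of their groups, or carry a wrong label, was not tested, and every value over 18 libraries includes them. All of the 4 lay below a limit of 0.96 on the median correlation, and the tests were run over 18 libraries and over 14. The lowest value of each of 9 polarity genes lay in one of the 4 libraries, and so did the highest value of 2. Leaving out the 4 therefore also removes extreme values of the genes tested. Without the 4, CHIR keeps 1 library, which is assumed to vary like the other groups, and 24 h withdrawal and FZD6 agonist keep 2.

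Of the 10 genes, 4 were expressed well above the rest. Divided by gene length, Scrib had a mean level of 8.29 CPM per kb over the 18 libraries, Vangl1 had 7.39, Daam1 had 7.28 and Celsr1 had 3.84. The ranges over the 14 libraries overlapped among the first 3 (Scrib 5.83 to 10.1, Vangl1 6.26 to 9.38 and Daam1 4.70 to 12.6 CPM per kb), so their order is not resolved. Celsr1, at 3.37 to 5.13 CPM per kb, overlapped Daam1 but not Scrib or Vangl1. Celsr2 (0.941), Vangl2 (0.703) and Prickle1 (0.476 CPM per kb) formed a lower group whose ranges also overlapped one another. Prickle2 (0.0289) and Celsr3 (0.0247 CPM per kb) were read from 0 to 36 and from 1 to 27 counts per library. Ror2, at 0.00500 CPM per kb, was close to absent.

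**Figure D1:**
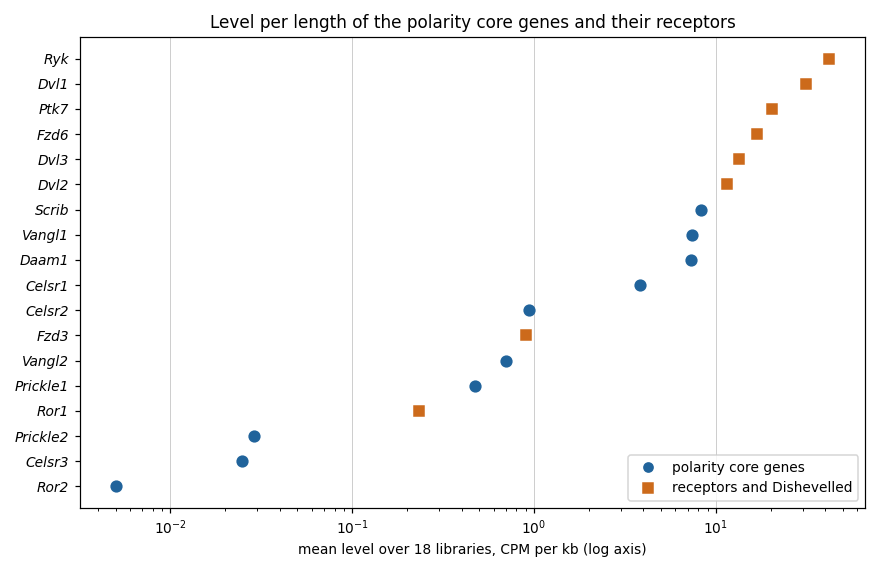
Mean level over the 18 libraries, in CPM per kb on a log axis, of the 10 polarity core genes (circles) and of 8 polarity receptors and Dishevelled genes (squares). Scrib, Vangl1 and Daam1 lie between 7.28 and 8.29, and Ryk, Dvl1, Ptk7, Fzd6, Dvl3 and Dvl2 lie above them.

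Among the paralogs set side by side here, 1 member made up most of each set. Over the 14 libraries and per length, Vangl1 made up 88.5 to 93.8% of the Vangl transcripts and Celsr1 76.9 to 88.7% of the Celsr transcripts. Prickle1 made up 80.6 to 98.7% of Prickle1 and Prickle2 together. Prickle3, which is not among the 10 genes, was higher than either. It averaged 4.52 CPM per kb over the 14 libraries, beside 0.482 for Prickle1. Daam1 made up 86.4 to 99.7% of the 2 Daam genes, its partner being Daam2. The 4 libraries departed from these shares: Vangl1 was 69.8% of Vangl in 24 h withdrawal 2, and Celsr1 was 58.9% of Celsr there and 59.3% in CHIR 1.

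**Figure D2:**
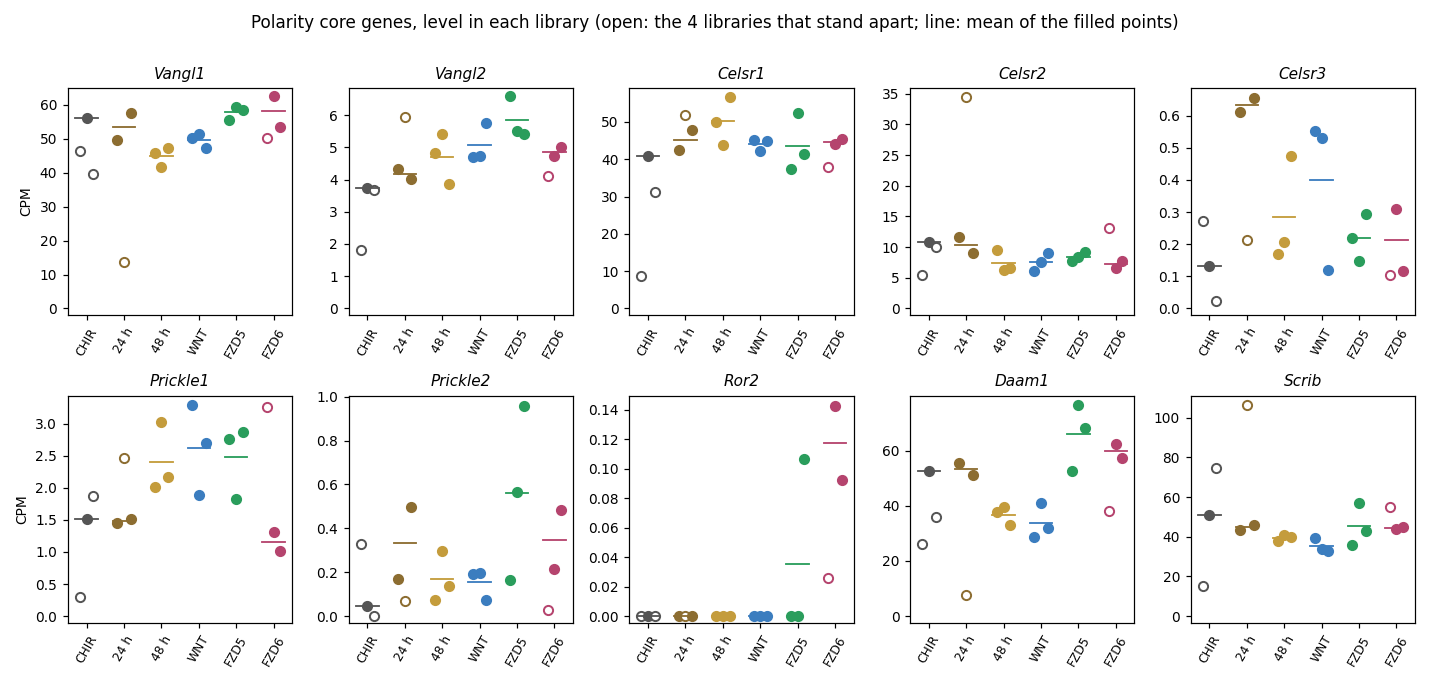
Level of each of the 10 polarity genes in every library, in CPM, by treatment group. Open points are the 4 libraries that stand apart, filled points the other 14, and lines the mean of the filled points. Daam1 is higher under the FZD5 agonist (52.8 to 76.5) than in 48 h withdrawal (33.0 to 39.5), and Ror2 has counts only under the FZD5 and FZD6 agonists.

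Over all 18 libraries no polarity gene passed the test in any of the 15 comparisons between groups. In edgeR's quasi-likelihood test with Benjamini-Hochberg adjustment, 135 tests of 9 genes gave no adjusted p under 0.05 and 10 unadjusted p under 0.05. Ror2 did not pass the filter on low counts. DESeq2 called 1 of the same tests, and limma voom with a weight for each library's quality called 15. The share of all genes called by DESeq2 and limma voom is not given here, so these counts stand without a background. The background in the edgeR fit was also low. Of the 16497 genes tested, 2.59% were called for 48 h withdrawal against CHIR and 1.92% for WNT against CHIR, 0.0485% for 48 h against 24 h withdrawal, 0.0303% for WNT against 24 h withdrawal and 0.0121% for the FZD6 agonist against 48 h withdrawal. The share was 0.00606% for the FZD5 agonist against 24 h withdrawal and for each Frizzled agonist against CHIR, and 0% for 24 h withdrawal against CHIR, for WNT and the FZD5 agonist against 48 h withdrawal, for the FZD6 agonist against 24 h withdrawal and for the 3 comparisons among the ligands. A test of any difference over the 6 groups called 0.649% of all genes and no polarity gene.

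Over the 14 libraries 12 of the 135 tests passed, spread over 4 genes: Daam1 in 7 comparisons, Vangl1 in 2, Prickle1 in 2 and Scrib in 1. In all 12 the libraries of the 2 groups did not overlap. This describes calls already selected by the test and adds no support to them. The share of all genes without overlap was not counted. With CHIR 1 put back (15 libraries) 2 of the 12 passed, Daam1 under the FZD5 agonist against 48 h withdrawal and against WNT (edgeR adjusted p = 0.0481 and 0.0296). The median standard error of a log2 fold change was 0.44 over 18 libraries and 0.19 over 14. Many other genes passed as well. Of the 17433 genes tested, 15.7% were called for the FZD5 agonist and 12.1% for the FZD6 agonist against 48 h withdrawal, 16.7% for the FZD5 agonist and 11.8% for the FZD6 agonist against WNT, 18% for 48 h against 24 h withdrawal, 13.6% for WNT against 24 h withdrawal and 26.6% for WNT against CHIR. In the other comparisons no polarity gene passed: the share of all genes was 27.5% for 48 h withdrawal against CHIR, 13.6% for the FZD5 agonist against CHIR, 8.48% for the FZD6 agonist against CHIR, 4.5% for 24 h withdrawal against CHIR, 4.23% for the FZD5 agonist and 0.677% for the FZD6 agonist against 24 h withdrawal, 0.00574% for the FZD6 against the FZD5 agonist and 0% for WNT against 48 h withdrawal. The comparisons share libraries, so the 7 of Daam1 are not separate observations. Over the 6 groups at once, Daam1 (edgeR adjusted p = 0.000785), Vangl1 (0.0171) and Prickle1 (0.0239) varied, among 29.3% of all genes.

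Daam1 passed in the most comparisons. Daam1 (ENSMUSG00000034574, GRCm38 chr12:71831078-71992333, plus strand) encodes a formin that is opened by Dishevelled and assembles unbranched actin filaments. Its level was 37.9, 39.5 and 33.0 CPM in the 48 h withdrawal libraries and 28.5, 40.9 and 31.9 CPM in the WNT libraries. It was 52.8, 76.5 and 68.3 CPM under the FZD5 agonist and 38.0, 62.2 and 57.3 CPM under the FZD6 agonist. The FZD5 agonist libraries all lay above the 48 h withdrawal and WNT libraries, and so did the FZD6 agonist libraries except replicate 1, one of the 4 set apart. In CHIR it was 26.0, 52.5 and 36.1 CPM and in 24 h withdrawal 55.6, 7.82 and 51.1 CPM, and the 3 of these libraries that belong to the 14 (CHIR 2 and 24 h withdrawal 1 and 3) were at 51.1 to 55.6 CPM.

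In the fit of 14 libraries the log2 fold change of Daam1 against 48 h withdrawal was 0.85 (SE 0.14, edgeR adjusted p = 0.00111) under the FZD5 agonist and 0.71 (SE 0.15, edgeR adjusted p = 0.00853) under the FZD6 agonist. Against WNT it was 0.96 (edgeR adjusted p = 0.000486) and 0.81 (edgeR adjusted p = 0.00377). The 2 FZD5 results held when any 1 of the 14 libraries was left out, and both FZD6 results were lost without FZD6 agonist 2 (adjusted p = 0.0934 and 0.0553). Over all 18 libraries the same 4 log2 fold changes were 0.84, 0.51, 0.96 and 0.64, each with adjusted p = 1. Daam1 was lower in 48 h than in 24 h withdrawal by 0.53 on the log2 scale (edgeR adjusted p = 0.0313), lower under WNT than in 24 h withdrawal by 0.63 (0.0153) and lower under WNT than in CHIR by 0.60 (0.0322, against 1 CHIR library). The first was lost without 24 h withdrawal 1 or 3 or 48 h withdrawal 1 or 3, the second without 24 h withdrawal 1 or 3 or WNT 3, and the third without WNT 1 or 3. Over 18 libraries these 3 log2 differences were -0.05, -0.18 and -0.18, and none passed.

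Among the libraries of the 14, an airway secretory gene differed in the opposite direction to Daam1. Cyp2f2, which made up nearly all of the summed level of 6 club and secretory markers, was at 482 to 648 CPM in 48 h withdrawal and WNT and at 131 to 349.7 CPM under the FZD5 and FZD6 agonists. It was at 46.0 CPM in CHIR 2 and at 119 and 150.3 CPM in 24 h withdrawal 1 and 3. Of the 6 markers, 2 exceeded 1 CPM in any of the 14 libraries, Reg3g was at 0 in all of them and Scgb1a1 was at most 0.947 CPM. The sum of the 8 alveolar type 1 markers, each above 1 CPM in at least 1 library, was 6970 to 8355 CPM in 48 h withdrawal and WNT, 5662 to 7640 CPM under the FZD5 agonist, 6293 and 6393 CPM in FZD6 agonist 2 and 3, 6063 and 5318 CPM in 24 h withdrawal 1 and 3 and 3334 CPM in CHIR 2. The sum too was lower in most of the libraries where Daam1 was higher. Most of it came from Aqp5 and Ager, with means of 3956 and 1908 CPM over the 18 libraries, and not every marker followed it. Akap5 went the other way under the 2 agonists, with 21301 to 36276 counts in their libraries of the 14. It had 11128 to 18081 counts in 48 h withdrawal and WNT. The Pdpn counts of these groups overlapped. The part of either cell type's markers in the Daam1 result was not tested. In bulk RNA, fewer cells expressing a gene and less of its RNA per cell cannot be told apart.

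The promoters of the genes that moved are shown for Daam1 and Prickle1, since the factors of canonical Wnt signalling, the TCF/LEF proteins, bind a short core sequence that can be searched in them. The windows run from 250 bases before to 50 bases after an annotated start (RefSeq, GRCm38.p6). Capitals mark CTTTGA or CTTTGT on either strand, a pair of 6-base strings that cannot overlap each other at the same position. Daam1 has 2 annotated starts, the first in chr12:71830818-71831117 and the second in chr12:71889293-71889592, both on the plus strand. The Prickle1 window, that of the first of its 2 starts, is chr15:93595853-93596152 on the minus strand.
Daam1 first start: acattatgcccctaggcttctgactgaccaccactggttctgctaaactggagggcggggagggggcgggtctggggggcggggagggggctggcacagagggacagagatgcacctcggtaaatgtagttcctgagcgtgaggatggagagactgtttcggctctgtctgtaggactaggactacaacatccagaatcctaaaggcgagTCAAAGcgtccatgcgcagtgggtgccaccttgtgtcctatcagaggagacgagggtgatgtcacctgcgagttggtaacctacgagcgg
Daam1 second start: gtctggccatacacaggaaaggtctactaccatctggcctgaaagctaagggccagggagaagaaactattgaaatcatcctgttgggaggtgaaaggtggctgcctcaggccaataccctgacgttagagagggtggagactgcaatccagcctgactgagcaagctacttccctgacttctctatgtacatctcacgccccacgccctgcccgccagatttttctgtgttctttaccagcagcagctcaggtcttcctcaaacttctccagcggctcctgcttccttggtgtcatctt
Prickle1: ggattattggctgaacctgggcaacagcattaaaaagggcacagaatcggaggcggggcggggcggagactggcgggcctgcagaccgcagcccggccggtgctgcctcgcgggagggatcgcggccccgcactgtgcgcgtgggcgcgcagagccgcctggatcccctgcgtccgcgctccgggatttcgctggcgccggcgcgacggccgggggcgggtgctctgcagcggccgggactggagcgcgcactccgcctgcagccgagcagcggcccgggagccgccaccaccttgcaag
The first Daam1 window held 1 match, CTTTGA on the minus strand, beginning 40 bases before the start, and the other 2 windows held none. Of all 32817 promoter windows of this length, 31.2% held at least 1 match, so a single match is common. In the table, 7 of the 10 genes had 12 windows, and 3 of the 12 held a match, the other 2 being one Prickle2 start and that of Ror2. Vangl1, Celsr1 and Scrib had no entry.

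Vangl1 was higher under both Frizzled agonists than in 48 h withdrawal over the 14 libraries, by less than Daam1. Vangl1 (ENSMUSG00000027860, GRCm38 chr3:102153583-102204693, minus strand) encodes a 4-pass membrane protein of the Vangl and Prickle side. Its level was 46.0, 41.8 and 47.2 CPM in 48 h withdrawal, 55.6, 59.3 and 58.5 CPM under the FZD5 agonist and 50.3, 62.6 and 53.6 CPM under the FZD6 agonist. All 6 Frizzled agonist libraries lay above all 3 of 48 h withdrawal. The WNT libraries, at 50.2, 51.5 and 47.3 CPM, also lay above them, by a margin that did not pass (log2 0.16, SE 0.08, edgeR adjusted p = 0.668 over 14 libraries). CHIR libraries were at 46.4, 56.1 and 39.6 CPM and 24 h withdrawal libraries at 49.6, 13.8 and 57.7 CPM. Its log2 fold change against 48 h withdrawal in the 14 was 0.37 (SE 0.08, edgeR adjusted p = 0.00515) under the FZD5 agonist, which held in each of 14 omissions and was lost over 15 libraries (0.37, adjusted p = 0.0671). Under the FZD6 agonist it was 0.38 (SE 0.09, edgeR adjusted p = 0.0117), lost without FZD6 agonist 2 (adjusted p = 0.219). Over 18 libraries the values were 0.36 and 0.30, each with adjusted p = 1.

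Vangl2 (ENSMUSG00000026556, GRCm38 chr1:172000960-172028444, minus strand), the paralog with the stronger polarity mutants in mice, was expressed at a lower level and in another pattern. It was at 1.80, 3.73 and 3.69 CPM in CHIR and at 6.60, 5.50 and 5.42 CPM under the FZD5 agonist, without overlap. The other groups lay between 3.85 and 5.95 CPM. The log2 fold change of the FZD5 agonist over CHIR was 0.92 (SE 0.30, edgeR adjusted p = 0.19) over 18 libraries, the lowest adjusted p of any of the 135 tests, and 0.68 (SE 0.23, adjusted p = 0.0659) over 14. Without 24 h withdrawal 2 alone its edgeR adjusted p was 0.0344, and DESeq2 over 18 libraries gave 0.0208. Over the 18-library alternatives it ranged from 0.0208 to 0.559.

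**Figure D3:**
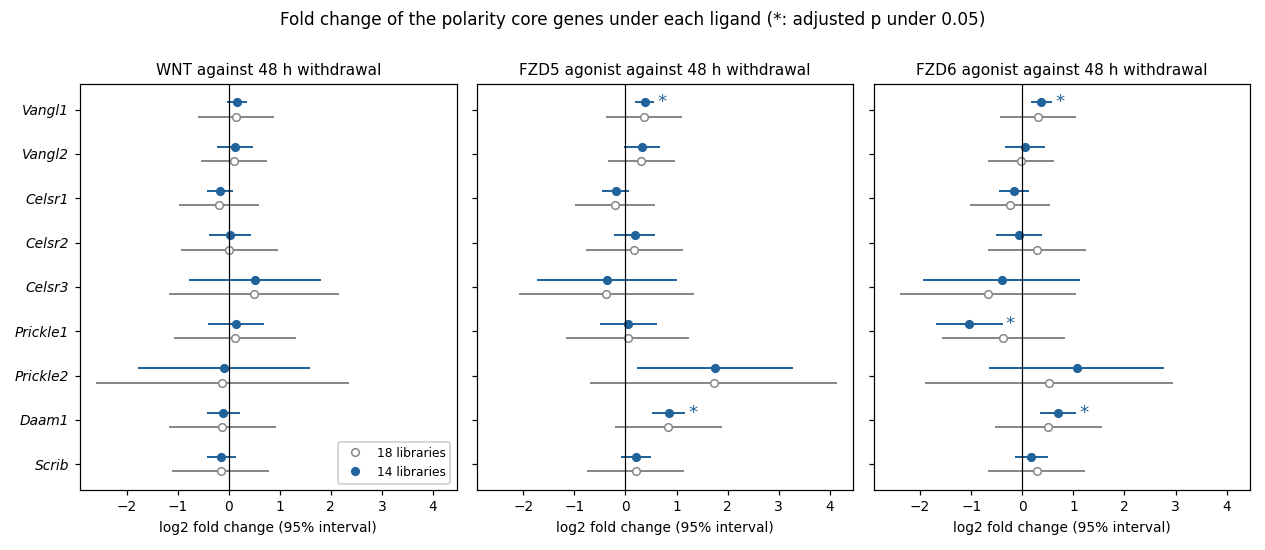
Log2 fold change with 95% interval of 9 polarity genes under WNT, the FZD5 agonist and the FZD6 agonist, each against 48 h withdrawal, over 18 libraries (open grey) and over 14 (filled blue). Asterisks mark an edgeR adjusted p under 0.05: Vangl1 and Daam1 under both Frizzled agonists and Prickle1 under the FZD6 agonist, all over 14 libraries.

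Among the Celsr cadherins, which hold polarity complexes of neighbouring cells together, none passed over 18 or 14 libraries. Celsr1 (ENSMUSG00000016028, GRCm38 chr15:85898929-86033777) stayed within 37.3 to 56.7 CPM in the 14 libraries, and was at 8.73 CPM in CHIR 1. Its log2 fold change against 48 h withdrawal over the 14 libraries was -0.17 under WNT, -0.19 under the FZD5 agonist and -0.16 under the FZD6 agonist, with 95% intervals of -0.41 to 0.07, -0.43 to 0.05 and -0.43 to 0.11. Over 18 libraries the values were -0.19, -0.20 and -0.24. The intervals bound the difference and do not show that the groups were equal. Celsr2 (ENSMUSG00000068740, GRCm38 chr3:108390851-108415552) was at 6.07 to 11.6 CPM in the 14 libraries and at 34.5 CPM in 24 h withdrawal 2. That library carried the largest difference of Celsr2 over 18 libraries, a log2 fold change of -1.30 for 48 h against 24 h withdrawal (SE 0.44, adjusted p = 0.194 by edgeR). Celsr3 (ENSMUSG00000023473, GRCm38 chr9:108826320-108852969) was at most 0.654 CPM, and its intervals were wide, with a median standard error of 0.71 over 14 libraries.

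Prickle1 was lower in the FZD6 agonist libraries of the 14 than under WNT or in 48 h withdrawal. Prickle1 (ENSMUSG00000036158, GRCm38 chr15:93499114-93595891, minus strand) encodes a LIM-domain adaptor that works with Vangl proteins. It was at 2.76, 1.83 and 2.87 CPM under the FZD5 agonist and at 3.26, 1.31 and 1.01 CPM under the FZD6 agonist. It was at 2.02, 3.02 and 2.17 CPM in 48 h withdrawal and at 3.29, 1.88 and 2.69 CPM under WNT. FZD6 agonist 2 and 3 were below every library of these 3 groups, and FZD6 agonist 1, one of the 4 set apart, was above all but one. Without the 4 libraries, the log2 fold change under the FZD6 agonist was -1.04 against 48 h withdrawal (SE 0.30, edgeR adjusted p = 0.0332) and -1.18 against WNT (SE 0.30, edgeR adjusted p = 0.0169). Each was lost in 4 of 14 omissions: without FZD6 agonist 2 or 3, and without 48 h withdrawal 2 or 3 for the first and WNT 1 or 3 for the second. Over 18 libraries the 2 values were -0.37 and -0.50, each with adjusted p = 1. Prickle1 was at 0.301, 1.52 and 1.88 CPM in CHIR and at 1.45, 2.47 and 1.52 CPM in 24 h withdrawal. The CHIR and 24 h withdrawal libraries among the 14 also lay below every library of 48 h withdrawal, WNT and the FZD5 agonist.

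The 2 Frizzled agonists were also compared directly. No polarity gene passed, and 1 gene of 17433 did over the 14 libraries. Prickle1 differed by -1.10 on the log2 scale, FZD6 minus FZD5 (95% interval -1.73 to -0.46, unadjusted p = 0.00217, edgeR adjusted p = 1), without overlap, and over 18 libraries by -0.42 (95% interval -1.60 to 0.77). Daam1 differed by -0.14 (95% interval -0.48 to 0.19) and Vangl1 by 0.00 (95% interval -0.19 to 0.19) over the 14. Vangl2 differed by -0.27 (95% interval -0.64 to 0.11). Over 18 libraries the differences of Daam1, Vangl1 and Vangl2 were -0.33, -0.06 and -0.34.

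Prickle2 and Ror2 were near the detection limit. Prickle2 (ENSMUSG00000030020, GRCm38 chr6:92370908-92706155) was at 0.164, 0.567 and 0.957 CPM under the FZD5 agonist, from 6, 27 and 36 counts, and at 0.0729 to 0.297 CPM in 48 h withdrawal. The groups overlapped, and the log2 fold change over the 14 libraries was 1.75 (SE 0.71, edgeR adjusted p = 0.113) and over 18 it was 1.73 (SE 1.13, edgeR adjusted p = 1). Ror2 (ENSMUSG00000021464, GRCm38 chr13:53109312-53286124), a receptor tyrosine kinase for Wnt5a, had 0 counts in 14 of the 18 libraries. The counts were 1, 6 and 4 in the FZD6 agonist libraries and 0, 0 and 4 in those of the FZD5 agonist, and 0 in all 12 libraries of the other groups. Fitted without a filter, the FZD6 agonist against 48 h withdrawal gave an unadjusted p of 0.0327 and an edgeR adjusted p of 1. No difference in Ror2 passed, and counts this few do not show that the groups were equal.

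Scrib, which anchors Vangl complexes and restrains apical identity, lay within 32.8 to 56.8 CPM in the 14 libraries. Scrib (ENSMUSG00000022568, GRCm38 chr15:76047158-76069784, minus strand) was at 37.6, 40.8 and 40.0 CPM in 48 h withdrawal, 39.5, 33.6 and 32.8 CPM under WNT, 35.8, 56.8 and 43.0 CPM under the FZD5 agonist and 54.8, 44.1 and 44.7 CPM under the FZD6 agonist. CHIR libraries, at 14.9, 50.8 and 74.6 CPM, and 24 h withdrawal libraries, at 43.6, 106 and 46.1 CPM, spread most, through libraries set apart. WNT lay below the 1 CHIR library of the 14 by 0.49 on the log2 scale (adjusted p = 0.0485 by edgeR, SE 0.17). That call held in 3 of 13 omissions and was lost over 18 libraries (-0.41, adjusted p = 0.744). Over 15 libraries, with CHIR 1 kept, the sign turned to 0.14 (adjusted p = 0.794).

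Most of the receptors and Dishevelled genes that feed the core pathway were expressed more strongly than the core genes. Per length and over 18 libraries, the Wnt co-receptor Ryk averaged 42.2 CPM per kb, the Dishevelled genes Dvl1, Dvl3 and Dvl2 31.2, 13.5 and 11.4, the pseudokinase Ptk7 20.4 and the polarity receptor Fzd6 16.8 CPM per kb. Dvl1 reached 449 CPM in 24 h withdrawal 2 and at most 97.3 CPM in the 14 libraries. Over the 14, Dvl1 averaged 24.4 and Ptk7 23.3 CPM per kb. Their ranges overlapped (20.8 to 29.0 and 19.9 to 26.7), so their order is not resolved. Fzd3, the partner of Fzd6, averaged 0.903 and Ror1, the paralog of Ror2, 0.232 CPM per kb.

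Fzd6 itself passed in no comparison over 14 or 18 libraries. It was at 74.6 and 77.9 CPM in FZD6 agonist 2 and 3, 86.6 CPM in FZD6 agonist 1, 79.3, 75.2 and 79.3 CPM under the FZD5 agonist and 82.8, 77.4 and 72.5 CPM in 48 h withdrawal. The log2 fold change under the FZD6 agonist against 48 h withdrawal was -0.02 (95% interval -0.20 to 0.17) over 14 libraries and 0.04 (95% interval -0.83 to 0.91) over 18. The groups overlapped, and the interval over 18 libraries leaves room for a change of either sign.

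**Figure D4:**
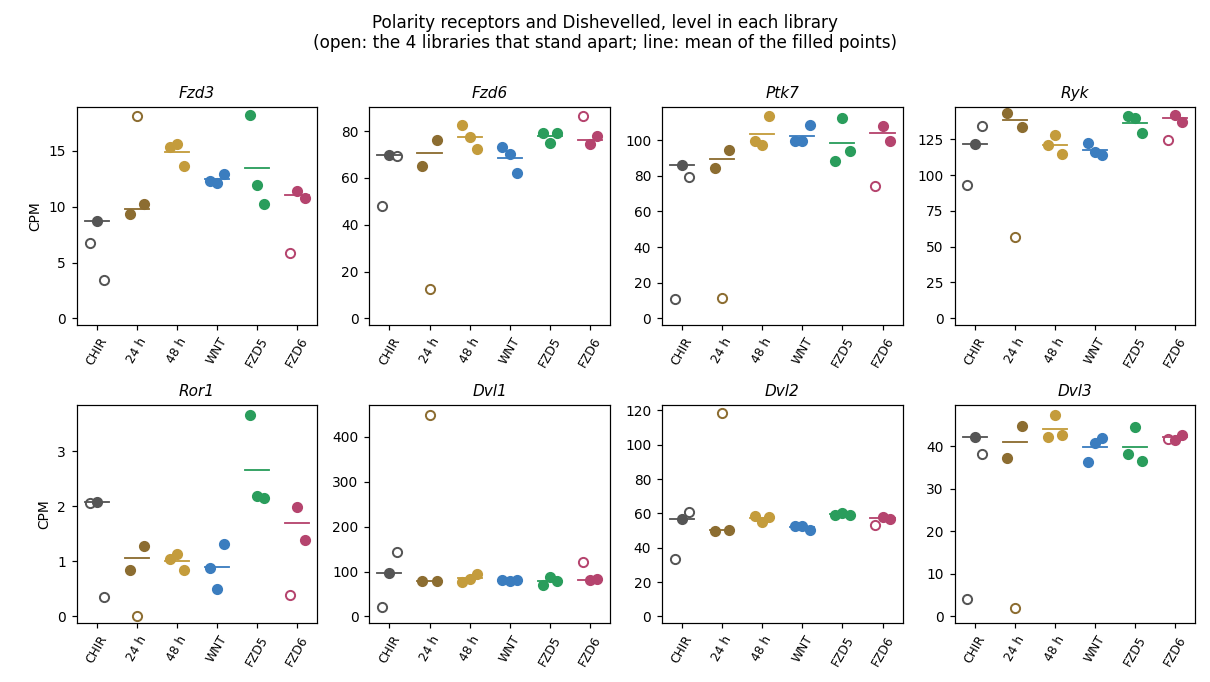
Level of the polarity receptors Fzd3, Fzd6, Ptk7, Ryk and Ror1 and of Dvl1, Dvl2 and Dvl3 in every library, in CPM, with open points for the 4 libraries that stand apart and lines for the mean of the filled points. Fzd6 lies between 62.1 and 82.8 in the 14 libraries, and Ror1 is highest under the FZD5 agonist (2.15 to 3.66).

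Of these 8 genes, none passed in any comparison over 18 libraries. In the 14, Ror1 was higher under the FZD5 agonist, at 3.66, 2.18 and 2.15 CPM, than in 48 h withdrawal, at 1.04, 1.13 and 0.837 CPM (log2 1.42, SE 0.33, edgeR adjusted p = 0.00881), and higher than under WNT (log2 1.58, edgeR adjusted p = 0.0042). The FZD5 agonist libraries held 134, 104 and 81 counts of Ror1. Beside these stood 94 counts in CHIR 2, 84 and 60 in FZD6 agonist 2 and 3, and 30 and 49 in 24 h withdrawal 1 and 3. Fzd3 was higher in 48 h withdrawal than in 24 h withdrawal (log2 0.62, edgeR adjusted p = 0.0323) and than in CHIR (log2 0.79, edgeR adjusted p = 0.0235). Ryk was higher under both Frizzled agonists than under WNT, by 0.21 and 0.24 on the log2 scale (edgeR adjusted p = 0.0316 and 0.0384 for the FZD5 and FZD6 agonist). Dvl2 was higher under the FZD5 agonist than under WNT by 0.19 and than in 24 h withdrawal by 0.27 (edgeR adjusted p = 0.0354 and 0.0327). Over 18 libraries the last of these turned to -0.29.

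A wider list of 74 polarity genes (these receptors, ligands, modulators, Fat and Dachsous cadherins, apicobasal partners of Scrib, and cytoskeletal and ciliary effectors) was read beside the core. Over 18 libraries, 64 were tested and 2 were higher in 48 h withdrawal than in CHIR and in WNT than in CHIR, both times Daam2 and Myl9, and none passed elsewhere. In the fit of 14, 65 were tested. Against 48 h withdrawal, 5 were higher and 5 lower under the FZD5 agonist (15.4%, beside 15.7% of all genes), and 3 higher and 2 lower under the FZD6 agonist (7.69%, beside 12.1%). For 48 h withdrawal against CHIR, 14 were higher and 6 lower (30.8%, beside 27.5%), and for WNT against CHIR 13 and 5 (27.7%, beside 26.6%). Against CHIR, 12 were higher and 2 lower under the FZD5 agonist (21.5%, beside 13.6%) and 9 higher and 1 lower under the FZD6 agonist (15.4%, beside 8.48%). Against WNT, 11 were higher and 3 lower under the FZD5 agonist (21.5%, beside 16.7%) and 4 higher and 1 lower under the FZD6 agonist (7.69%, beside 11.8%). For 48 h against 24 h withdrawal, 8 were higher and 4 lower (18.5%, beside 18%), and for WNT against 24 h withdrawal 1 and 2 (4.62%, beside 13.6%). For 24 h withdrawal against CHIR 3 were higher (4.62%, beside 4.5%), for the FZD5 agonist against 24 h withdrawal 2 were higher and 2 lower (6.15%, beside 4.23%), and none passed in the other 3 comparisons. The list's share thus lay above that of all genes in some comparisons and below it in others, and no test of these differences was made.

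Daam2, the paralog of Daam1, was higher in 48 h withdrawal than in CHIR, and higher than in 24 h withdrawal over the 14 libraries, where Daam1 was lower. Its level was 0.109, 0.0882 and 0 CPM in CHIR, 1.08, 0.141 and 1.13 CPM in 24 h withdrawal and 2.21, 2.55 and 3.29 CPM in 48 h withdrawal. All 3 of the 48 h libraries lay above all CHIR and 24 h libraries. The log2 fold change of 48 h withdrawal over CHIR was 5.30 (SE 0.94, edgeR adjusted p = 0.0102) over 18 libraries, from 0 to 4 counts per CHIR library, so its size is poorly fixed. Without the 4 libraries, 48 h exceeded 24 h withdrawal by 1.28 (SE 0.33, edgeR adjusted p = 0.0136). At 48 h, Daam2 still made up only 8.46 to 13.7% of the Daam transcripts per length. Myl9, a myosin light chain, was at 0.0821, 0.0661 and 0.0470 CPM in CHIR and at 1.19, 0.979 and 1.48 CPM in 48 h withdrawal (log2 4.17, edgeR adjusted p = 0.0208 over 18 libraries, and 4.16, adjusted p = 0.00118 over 14).

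Apicobasal and cytoskeletal genes were among the others that passed over the 14 libraries. Pard6g, a Par-complex adaptor, was at 21.3, 28.6 and 25.3 CPM in 48 h withdrawal, 50.6, 47.5 and 49.4 CPM under the FZD5 agonist and 49.6, 49.5 and 53.4 CPM under the FZD6 agonist. All 6 Frizzled agonist libraries, replicate 1 of FZD6 included, lay above all 3 withdrawal libraries (log2 0.98 and 1.05, edgeR adjusted p = 0.000223 and 0.000332). Rock2, a kinase that promotes actomyosin contraction, was at 115, 112 and 113 CPM in 48 h withdrawal, 136, 157 and 151 CPM under the FZD5 agonist and 160, 146 and 156 CPM under the FZD6 agonist (log2 0.39 and 0.42, edgeR adjusted p = 0.000475 and 0.000723). Pard6b was also higher (log2 0.33 and 0.29), and Limk2 (-0.20 and -0.28) and Crb3 (-0.27 and -0.26) were lower, under both agonists. None of the 5 passed over 18 libraries, where Limk2 under the FZD6 agonist turned to 0.09. Among ligands, Wnt4 was at 4.94 CPM in the 1 CHIR library of the 14, at 12.8 and 12.3 CPM in 24 h withdrawal and at 23.7, 23.2 and 23.0 CPM in 48 h withdrawal (log2 0.90 for 48 h over 24 h, edgeR adjusted p = 0.000428). CHIR 3 and 24 h withdrawal 2 held 33.8 and 81.1 CPM of Wnt4, and over 18 libraries the log2 value turned to -0.60 (edgeR adjusted p = 0.71). Wnt5a, the best known polarity ligand, was at most 0.987 CPM, and Dchs1, Prickle4 and Rspo3 had no counts.

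The polarity genes did not share 1 pattern across libraries. As a description over 14 libraries, which share their groups, the Pearson correlation of log2 CPM was 0.749 between Vangl1 and Daam1, 0.680 between Daam1 and Scrib and -0.496 between Daam1 and Prickle1, and it was -0.0165 between Vangl1 and Vangl2. Over 18 libraries the 4 values were 0.906, -0.225, -0.0608 and -0.125. For the 4 genes with the highest level per length, the genes of most similar pattern over 18 libraries were Raver2 (r = 0.988), Arhgap19 (0.987) and Uhrf1 (0.983) for Vangl1, Sel1l (0.967), Fubp3 (0.965) and Efnb2 (0.962) for Daam1, Hip1r (0.977), Camsap3 (0.976) and Tyk2 (0.974) for Celsr1, and Ppp1r12c (0.962), Tbkbp1 (0.961) and Slc25a22 (0.958) for Scrib. In the 14 libraries these correlations were lower, from 0.869 to 0.943 for the genes near Vangl1, 0.877 to 0.939 near Daam1, 0.466 to 0.781 near Celsr1 and 0.675 to 0.874 near Scrib.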

How the data were processed

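Libraries were made from total RNA with a stranded total RNA kit, per the labels' protocols, and aligned with GSNAP to GRCm38, per the submitters' processing notes. Neither the annotation nor the counter is given in the sources used here, and whether strand was used is not stated. The deposited files hold raw counts per gene, which were used, with a width per gene and an RPKM column that was not used. Symbols came from GENCODE M21 for 99.6% of the 52636 rows. Counts were fitted with edgeR 4.0.16 (R 4.3.3): TMM factors, a filter by group, 1 quasi-likelihood fit of the 18 libraries and Benjamini-Hochberg adjusted p under 0.05 over all genes tested. CPM use the TMM library sizes of the 18 libraries, and lengths the deposited width. The same fit was made over 14 libraries, and DESeq2 1.42.0, limma 3.58.1 and other settings were alternatives. The test was checked on simulated counts of 18 libraries, with the same dispersion for every gene and no library set apart. That check does not cover the fit over 14 libraries. The members, the gene lists and the 4 libraries left out were chosen with earlier results of these data known. Named were all members, 8 receptor and Dishevelled genes, up to 4 called genes per other list and comparison with the smallest p, and the 3 genes nearest to a member in pattern. Wnt5a, Dchs1, Prickle3, Prickle4, Rspo3, Cyp2f2, Scgb1a1, Reg3g and Xist were named after their values were seen. Exons of Vangl1 and Celsr3 overlap another annotated gene by 8 and 65 bases.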

Additional observations from a re-analysis of the deposited data

How the results depend on the processing

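With all 18 libraries, no count of called polarity genes moved under RLE or upper-quartile factors, without a filter or with a filter of 1 CPM in 3 libraries. With the replicate number as a block the count stayed 0 in every comparison. Same-numbered libraries of different groups showed no common deviation (median r = -0.0226 over 45 pairs, from -0.521 to 0.466, 4 over 0.1). Among the 14 libraries without CHIR the median was -0.0312 over 22 pairs. The labels do not say whether the numbers mark shared cultures or batches, and these correlations do not settle it. Over 14 libraries the count became 1 for 48 h against 24 h withdrawal, 2 and 3 for the FZD5 and FZD6 agonist against 48 h withdrawal, 1 for WNT against 24 h withdrawal, 2 for WNT against CHIR, 2 and 1 for the FZD6 and FZD5 agonist against WNT, and 3 for any difference over the 6 groups. Over 15 libraries, with CHIR 1 kept, it became 2 for 48 h withdrawal against CHIR (Vangl2 and Prickle1), 1 for the FZD5 agonist against 48 h withdrawal (Daam1), 2 for WNT against CHIR (Vangl2 and Prickle1), 3 for the FZD5 agonist against CHIR (Vangl2, Daam1 and Prickle1), 1 for the FZD5 agonist against WNT (Daam1) and 1 over the 6 groups (Daam1). With limma voom it became 1 for 48 h against 24 h withdrawal, 3 for each Frizzled agonist against 48 h withdrawal, 1 for WNT against 24 h withdrawal, and 3 and 4 for the FZD6 and FZD5 agonist against WNT. Fitted on only the groups compared, it became 2 and 1 for the FZD5 agonist against 48 h withdrawal and WNT. DESeq2 gave 1 for the FZD5 agonist against CHIR. Leaving out 1 library gave 0 to 1 for that comparison, 1 only without 24 h withdrawal 2, and 0 elsewhere. The cause was not tested. For 15 libraries, limma voom, DESeq2 and only the groups compared, the share of all genes called is not given here. The counts of polarity genes in those fits therefore cannot be set against a background. Of the 12 calls over 14 libraries, 8 passed with the replicate block there, 2 over 15 libraries, and over 18 libraries 10 with limma voom, 3 with only the groups compared and 0 with DESeq2, RLE or upper-quartile factors, either filter setting or the block. Of 166 omissions of 1 of the 14 libraries, 136 kept a call. Among the polarity core genes 1 call turned sign: Scrib for WNT against CHIR, at 0.14 over 15 libraries. Celsr3, Prickle2 and Ror2 rest on at most 27, 36 and 6 counts per library, and whether depth or scatter between libraries sets their errors was not tested.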
